A study of Homo sapiens with 29 samples.

Results

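TAC3 and POMC, the genes for the neuropeptide precursors of neurokinin B and of corticotropin, were 2 of the 13492 genes in the deposited expression table. They were taken by symbol and chosen by their measured CPM, which moved far in opposite directions with the peptide Helicon4. Expression had been measured by RNA-seq of polyA RNA from xenograft tumors of COLO320DM, a human colorectal adenocarcinoma line, grown in mice and treated once tumors averaged about 300 mm3. The study concerns a helicon peptide directed at the interaction of β-catenin with TCF transcription factors. All tumors carry the 48 h label. The groups were vehicle (10 libraries), Helicon4neg at 30 mpk (8 libraries), Helicon4 at 30 mpk (6 libraries) and Helicon4 at 100 mpk (5 libraries), with mpk the dose unit as labelled. The labels do not say what Helicon4neg is, and give only replicate numbers to show that libraries came from separate mice. The p-values below therefore measure the spread between these libraries, which may be partly technical.

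Neuropeptides are made as longer precursors that are cut and modified inside secretory granules. TAC3 encodes the precursor of neurokinin B, a tachykinin that acts on the receptor TACR3 and is best known from hypothalamic neurons that drive the release of gonadotropins. POMC encodes proopiomelanocortin, which prohormone convertases cut into corticotropin, the melanocortins and β-endorphin, and it is a product of pituitary corticotrophs and of some neuroendocrine tumors. COLO320 cells have been described as neuroendocrine in character and as producing corticotropin. TCF factors, the partners of β-catenin, bind DNA at a short motif with the core CTTTGA or CTTTGT.

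Both genes lie on the minus strand. In the GENCODE 29 annotation of GRCh38, TAC3 (ENSG00000166863) covers chr12:57010000-57028883 with 11 transcripts and POMC (ENSG00000115138) covers chr2:25160853-25168903 with 5. Their deposited lengths, 1574 and 1538 bases, equal the union of their GENCODE 29 exons. Of the TAC3 exon bases, 112 are shared with MYO1A on the same strand, so reads there could belong to either gene; MYO1A has no row in the table. The 250 bases upstream of each RefSeq start (GRCh38.p14), chr12:57016530-57016779 for TAC3 and chr2:25168581-25168830 for POMC, are shown because the study concerns a DNA-binding factor and the genes moved apart. For both genes the RefSeq start and the stretch shown lie inside the GENCODE span. Some annotated transcripts of each gene therefore begin farther upstream. Capitals mark a TCF core on either strand (CTTTGA or CTTTGT, read as TCAAAG or ACAAAG on the other strand) and a TATA box (TATATAA or TATAAA). The TCF core and the TATA box do not overlap in the letters shown.
TAC3: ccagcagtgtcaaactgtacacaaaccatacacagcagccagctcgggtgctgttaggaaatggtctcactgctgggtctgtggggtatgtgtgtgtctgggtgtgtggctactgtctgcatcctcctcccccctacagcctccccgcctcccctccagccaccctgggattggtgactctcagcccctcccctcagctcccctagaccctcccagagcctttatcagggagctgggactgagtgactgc
POMC: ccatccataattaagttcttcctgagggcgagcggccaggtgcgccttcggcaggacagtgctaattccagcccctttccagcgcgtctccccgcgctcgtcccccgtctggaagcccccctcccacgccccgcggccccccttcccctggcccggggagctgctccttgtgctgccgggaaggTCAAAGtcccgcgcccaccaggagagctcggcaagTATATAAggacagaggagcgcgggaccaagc
The POMC stretch held 1 TCF core, TCAAAG, whose first base is 66 bases upstream of the start, and the TATA box TATATAA at 31 bases upstream. The TAC3 stretch held neither motif. Of 35116 RefSeq promoter stretches of the same length, 22.8% held CTTTGA or CTTTGT on either strand, 11.2% held CTTTGA and 2.42% held TATATAA. The 7-letter forms CTTTGAA (in 3.8% of promoters), CTTTGAT (2.26%), CTTTGTA (2.35%) and CTTTGTT (4.5%) were in neither sequence, nor was TATAAA (10.7%). GC content was 60% for TAC3 and 66.8% for POMC, against a median of 58% over all promoters. These matches describe letters in a window and do not show that a factor binds there.

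TAC3 was low without Helicon4 and high with it. Levels are deposited CPM, read counts per library size on the authors' scaling between libraries. In the vehicle libraries TAC3 ran from 1.97 through a median of 2.69 to 3.61 CPM, and with Helicon4neg from 2.08 through 2.7 to 4.96 CPM. With Helicon4 at 30 mpk the lowest, median and highest libraries had 7.19, 8.97 and 16.8 CPM, and at 100 mpk the 5 libraries had 58.2, 59.6, 44.9, 21.9 and 24 CPM. Every Helicon4 library stood above every library without Helicon4, and every library at 100 mpk above every library at 30 mpk. The group means were 2.69 ± 0.507 (SD, n = 10), 3.16 ± 0.998 (SD, n = 8), 11.1 ± 4.40 (SD, n = 6) and 41.7 ± 18.1 CPM (SD, n = 5) in that order. Mean TAC3 was thus 15.5-fold the vehicle level at 100 mpk and 4.13-fold at 30 mpk. On the log2(CPM + 1) scale, which understates changes of low genes, the differences from vehicle were 3.43 (SE 0.21) and 1.65 (SE 0.20). At the matched dose of 30 mpk TAC3 was 1.5 (SE 0.21) higher on that scale with Helicon4 than with Helicon4neg, and 100 mpk exceeded 30 mpk by 1.77 (SE 0.23). These Helicon4 differences are the reason TAC3 was chosen, so they are given as a description with no test.

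POMC went the other way and reached its low level at the lower dose. The vehicle libraries ran from 2.92 through a median of 11.8 to 20.5 CPM, and the Helicon4neg libraries from 8.28 through 13.7 to 25 CPM. With Helicon4 at 30 mpk the lowest, median and highest POMC levels were 0.582, 0.938 and 1.73 CPM, and the 5 libraries at 100 mpk had 0.706, 0.454, 0.534, 0.979 and 0.885 CPM. All 11 Helicon4 libraries lay below all 18 others, while the 2 doses overlapped. Means were 11.2 ± 5.78 CPM (SD, n = 10) with vehicle, 15.3 ± 6.36 (SD, n = 8) with Helicon4neg, 1.06 ± 0.493 (SD, n = 6) with Helicon4 at 30 mpk and 0.712 ± 0.223 (SD, n = 5) at 100 mpk. The vehicle mean was 15.8-fold that at 100 mpk and 10.6-fold that at 30 mpk. The log2 differences from vehicle were -2.67 (SE 0.30) at 100 mpk and -2.43 (SE 0.28) at 30 mpk, and Helicon4 minus Helicon4neg at 30 mpk was -2.93 (SE 0.29). Between the doses the log2 difference of POMC, 100 minus 30 mpk, was -0.24 (SE 0.33), with 95% limits of -0.91 and 0.42. These values too chose the gene and carry no test. Tumors are mixtures, so fewer cells making a transcript and less of it per cell cannot be told apart here.

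**Figure D1:**
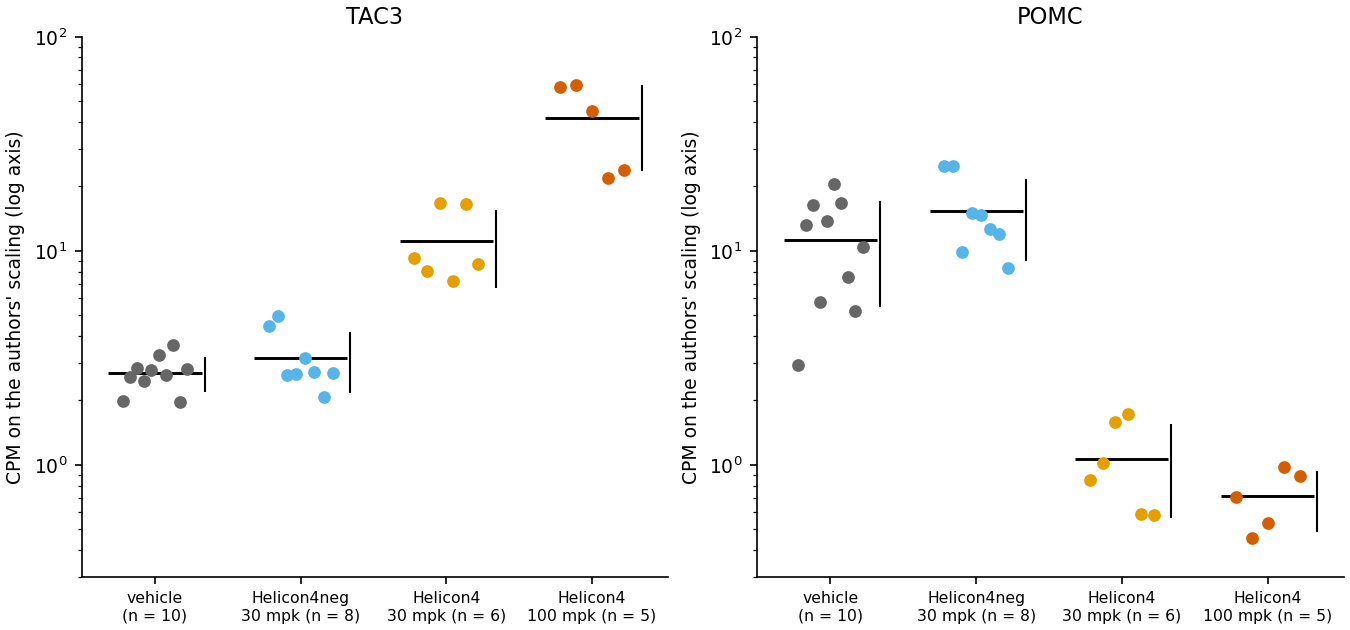
TAC3 and POMC in each of the 29 libraries, as CPM on the authors' scaling (log axis), by treatment group. Points are libraries, long bars are group means and the thin bars beside them span 1 SD either way; TAC3 libraries at 100 mpk start at 21.9 CPM and all Helicon4 libraries of POMC are at or below 1.73 CPM.

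The comparison of Helicon4neg with vehicle holds no Helicon4 library and is the only one tested for these genes, although it uses the vehicle libraries that also entered the choice. TAC3 differed by 0.15 on the log2 scale (SE 0.18, 95% limits -0.22 to 0.53, limma adjusted p = 0.705) and POMC by 0.50 (SE 0.26, limits -0.02 to 1.02, limma adjusted p = 0.281). Neither passed the threshold of 0.05, and the groups overlapped for both genes. The upper limits leave room for a rise of up to 0.53 for TAC3 and 1.02 for POMC. Over 30 alternative settings, each library left out in turn among them, the adjusted p stayed between 0.300 and 0.848 for TAC3 and between 0.081 and 0.445 for POMC.

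Per kilobase of transcript, the order of the 2 genes changed with treatment. In vehicle tumors POMC was at 7.30 ± 3.76 CPM per kb (SD, n = 10) and TAC3 at 1.71 ± 0.322 (SD, n = 10), above 58.5% and 25.2% of the genes in the table. At 100 mpk of Helicon4 TAC3 was at 26.5 ± 11.5 CPM per kb (SD, n = 5) and POMC at 0.463 ± 0.145 (SD, n = 5), above 88.7% and 8.45% of genes. With 30 mpk TAC3 stood above 57.9% and POMC above 12.5% of genes. POMC rested on few reads in the Helicon4 groups, 16 to 61 per library at 100 mpk and 25 to 83 at 30 mpk, against 112 to 1108 in vehicle libraries. TAC3 had 70 to 177 reads per vehicle library and 1365 to 2557 at 100 mpk.

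How much each gene varied between libraries of the same group differed by group. The coefficient of variation of POMC was 51.5% over vehicle libraries, where counting error alone would give 5.58%. That exceeded 99.4% of the 1787 genes whose vehicle mean lay within 1.5-fold of POMC's. For TAC3 the coefficient was 18.8% in vehicle libraries, 31.5% with Helicon4neg, 39.6% at 30 mpk and 43.4% at 100 mpk. In that order these lay above 26%, 74.8%, 98.5% and 99.6% of genes of like level in the same group. POMC stood above 94.1% of such genes with Helicon4neg, 93.7% at 30 mpk and 45.6% at 100 mpk. TAC3 was thus variable for its level in the Helicon4 groups, and POMC in all groups but the one at 100 mpk. At 100 mpk the coefficient of POMC was 31.4%, where counting error alone would give 19.0%.

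The sample titles carry a code, of unstated meaning, that follows the groups closely, and no code holds both vehicle and Helicon4 libraries. Helicon4 and vehicle can therefore be compared at a fixed code only through Helicon4neg, by adding differences within codes. Within the code that holds Helicon4neg (3 libraries) and Helicon4 at 30 mpk (1 library), the log2 difference of Helicon4 minus Helicon4neg was 1.57 for TAC3 and -2.67 for POMC. Within the code shared by the doses (4 libraries at 100 mpk, 1 at 30 mpk), 100 minus 30 mpk was 2.19 for TAC3 and 0.066 for POMC. Helicon4neg minus vehicle within a code (5 and 2 libraries) was 0.41 for TAC3 and 1.09 for POMC. Each of these rests on a group of 1 or 2 libraries and is given with no test.

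Within the groups without Helicon4, TAC3 and POMC had positive correlations. Among vehicle libraries Pearson's r of their log2 levels was 0.62 (permutation p = 0.0574, adjusted p = 0.103 over 9 relations) and Spearman's rho 0.61 (permutation p = 0.0659, adjusted p = 0.289). Without the 2 libraries farthest from the median of TAC3, r was 0.89. Among Helicon4neg libraries r was 0.85 (exact permutation p = 0.0119, adjusted p = 0.0403) and rho 0.71 (exact permutation p = 0.0576, adjusted p = 0.289), but r fell to 0.24 without the 2 farthest libraries. The relation in that group rests on replicates 1 and 2, which had 4.43 and 4.96 CPM of TAC3 and 24.9 and 25 CPM of POMC, the highest values of both genes. Among the 6 libraries of Helicon4 at 30 mpk r was -0.11 (exact permutation p = 0.807, adjusted p = 0.807) and rho -0.26 (exact permutation p = 0.658, adjusted p = 0.741), and r was -0.84 without the 2 farthest. The group at 100 mpk, with 5 libraries, was too small for a correlation.

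**Figure D2:**
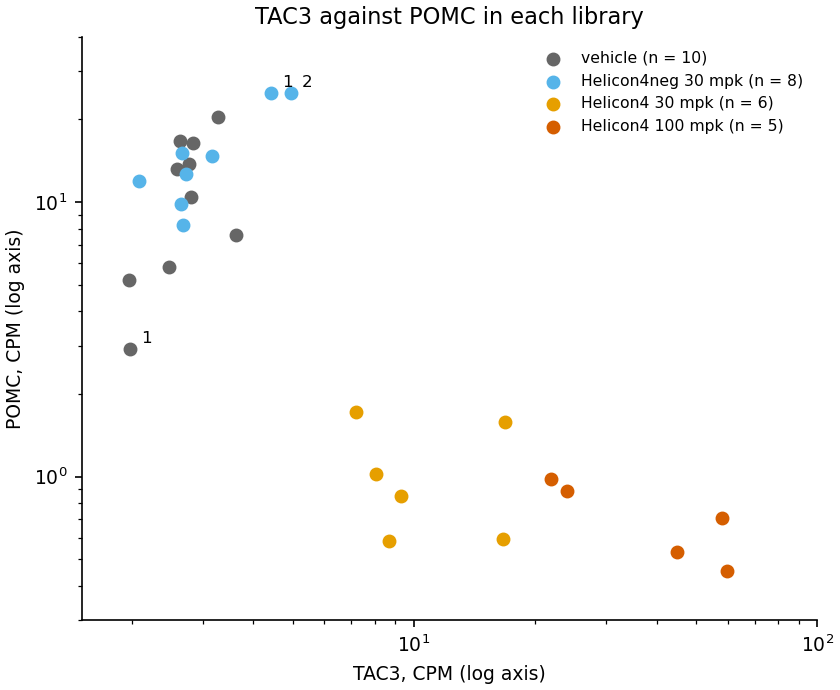
TAC3 (x axis) against POMC (y axis) in each of the 29 libraries, in CPM on log axes and coloured by group. The 18 libraries without Helicon4 lie at the upper left and the 11 Helicon4 libraries at the lower right; the labelled points are replicates 1 and 2 of Helicon4neg and replicate 1 of vehicle, the lowest of its group in POMC.

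Library depth ran from 26.8 to 61.6 M reads. A pair of libraries, Helicon4neg replicate 2 and vehicle replicate 6, favoured short genes most and is called the pair that stood apart. Their log2 levels fell by 0.32 and 0.19 per doubling of gene length relative to the mean library. Vehicle replicates 4 and 8 came next, with slopes of -0.14 and -0.13, so vehicle replicate 6 stood less far apart than Helicon4neg replicate 2. The pair held the highest Helicon4neg and vehicle levels of POMC. Without this pair the log2 difference of Helicon4 at 100 mpk from vehicle was 3.45 for TAC3 and -2.56 for POMC, and that of Helicon4neg from vehicle 0.10 and 0.50. Among Helicon4neg libraries the length slope and TAC3 had r = -0.80 (exact permutation p = 0.0134, adjusted p = 0.0403), and rho was -0.31 (exact permutation p = 0.462, adjusted p = 0.594). The slope and POMC had r = -0.73 there (exact permutation p = 0.0131, adjusted p = 0.0403) and rho = -0.55 (exact permutation p = 0.171, adjusted p = 0.369). Without the 2 libraries farthest from the median slope these r were 0.36 and -0.19, so both rest on those libraries. In the vehicle group the slope had r = -0.69 with TAC3 (permutation p = 0.0271, adjusted p = 0.061) and -0.32 with POMC (permutation p = 0.372, adjusted p = 0.478). With the slope as a covariate the log2 differences at 100 mpk were 3.62 for TAC3 and -2.46 for POMC, and with Helicon4neg POMC differed by 0.59 (limma adjusted p = 0.081).

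The rest of the neuropeptide pathway was followed in 6 gene lists of 159 genes, of which 68 were expressed highly enough to test. Of these, 10 rose and 15 fell with Helicon4 at 100 mpk against vehicle (36.8%), where 30.2% of all 13373 genes tested passed, 14.3% higher and 15.9% lower. At 30 mpk against vehicle 3 rose and 4 fell (10.3%), against 11.1% of all genes, 5.86% higher and 5.22% lower. With Helicon4neg 1 rose and 2 fell (4.41%), against 4.84% of all genes, 2.21% higher and 2.62% lower. Between Helicon4 and Helicon4neg at 30 mpk 3 rose and 6 fell (13.2%), against 15.1% of all genes, 7.78% higher and 7.31% lower. The shares over the lists were near those over all genes. Their median log2 changes were -0.05, 0.01, 0.03 and -0.02 in the same order, against medians between -0.00 and 0.01 for all genes. The first 3 comparisons share the vehicle libraries. The count of all genes passing with Helicon4neg, 647, was 2595 without its replicate 2 and 393 without its replicate 4, and the 1481 genes at 30 mpk were 986 without Helicon4 30 mpk replicate 1. The list count of 3 with Helicon4neg was 11 without its replicate 2 and 6 without vehicle replicate 10, and the 9 against Helicon4neg were 5 without either its replicate 1 or its replicate 4. When the title code was blocked on, limma called 0 list members at 100 mpk, 1 at 30 mpk, 0 with Helicon4neg and 1 against Helicon4neg, with 4, 5, 11 and 6 at an unadjusted p under 0.05.

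Among the list members called, the largest change was in an antagonist of a POMC product. ASIP, the agouti protein that blocks melanocortins at the receptor MC1R, was, like POMC, low with Helicon4. It ran from 1.2 to 3.72 CPM with vehicle, from 3.11 to 5.82 with Helicon4neg, from 0.200 to 0.898 with Helicon4 at 30 mpk and from 0.241 to 0.507 at 100 mpk. Both Helicon4 groups lay below all other libraries, and Helicon4neg overlapped vehicle in its lower part. ASIP fell by 1.25 at 100 mpk (SE 0.14, limma adjusted p = 5.19e-08) and by 1.22 at 30 mpk (SE 0.13, limma adjusted p = 6.16e-08), and rose by 0.67 with Helicon4neg (SE 0.12, limma adjusted p = 0.00157). Against Helicon4neg it fell by 1.88 at 30 mpk of Helicon4 (SE 0.14, limma adjusted p = 1.96e-11). When the title code was blocked on, the last of these and the change at 30 mpk remained called, while adjusted p became 0.0667 at 100 mpk and 0.512 for Helicon4neg. MC1R itself averaged 8.18 ± 1.60 CPM (SD, n = 10) with vehicle and 6.20 ± 0.745 (SD, n = 5) at 100 mpk, a change of -0.34 that missed the threshold (limma adjusted p = 0.0567) and passed it in the count tests (adjusted p = 0.0479 with edgeR and 0.0367 with DESeq2). ASIP was the single member called by limma in each comparison among the 5 tested of 17 in this list (20%). Of all genes tested 30.2% were called at 100 mpk, 11.1% at 30 mpk, 4.84% with Helicon4neg and 15.1% against Helicon4neg. TACR1, TACR2, TACR3 and MC2R, the receptors for the tachykinins and for corticotropin, are not in the table, nor is the related precursor gene TAC1.

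Of 13 tested enzymes that mature peptides, 6 fell and 1 rose at 100 mpk, where 15.9% of all genes fell and 14.3% rose. The median change was -0.06, against 0.01 for all genes, and with a block for the title code limma called 0 of the 13 (3 at an unadjusted p under 0.05). TPST2, which adds sulfate to tyrosines, ranged over 64.4 to 88.5 CPM with vehicle and over 36.2 to 42.1 at 100 mpk, without overlap, and fell by 0.88 (SE 0.10, limma adjusted p = 1.02e-07). PCSK5, a proprotein convertase, fell by 0.78 (limma adjusted p = 2.09e-05). PAM, the enzyme that amidates peptide ends including that of neurokinin B, averaged 202 ± 25 CPM (SD, n = 10) with vehicle and 136 ± 19.4 (SD, n = 5) at 100 mpk, a fall of 0.57 (limma adjusted p = 0.000197). QPCT and QPCTL, which close N-terminal glutamine into a ring, each fell by 0.50 (limma adjusted p = 0.00562 and 0.0115). CPE, the carboxypeptidase that trims the cut peptides of POMC, fell by 0.45 (limma adjusted p = 0.0265); its adjusted p was 0.0792, 0.0578 and 0.0713 without 100 mpk replicate 1, 3 or 4, and 0.0811 with the replicate number as a block. TPST1, named after its values were seen, rose by 0.17 (limma adjusted p = 0.0381), a call lost without any 1 of 8 libraries (vehicle 3, 4 or 5 or any at 100 mpk; adjusted p up to 0.0884) and with the replicate block (0.0641).

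At 30 mpk TPST2, QPCT and PAM also fell against vehicle, by 0.69, 0.64 and 0.45 (limma adjusted p = 5.4e-06, 0.00061 and 0.00314). Against Helicon4neg at the same dose TPST2 fell by 0.70, PCSK5 by 0.68 and QPCT by 0.46 (limma adjusted p = 7.66e-06, 0.000249 and 0.0166; 0.0748 for QPCT in a fit of these 2 groups alone). QPCTL fell by 0.43 there (limma adjusted p = 0.046). That call was lost without any 1 of 9 libraries (Helicon4neg 1 to 4 and Helicon4 1, 2, 3, 4 or 6), with an adjusted p of up to 0.123. It was also lost with a filter at 5 CPM (0.0519) and, at a change of -0.29, without the pair of libraries that favoured short genes (0.0512). The convertases that cut POMC in neuroendocrine cells, PCSK1 and PCSK2, are not in the table, while the other convertases FURIN, PCSK4, PCSK6 and PCSK7 were not called by limma in any comparison.

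**Figure D3:**
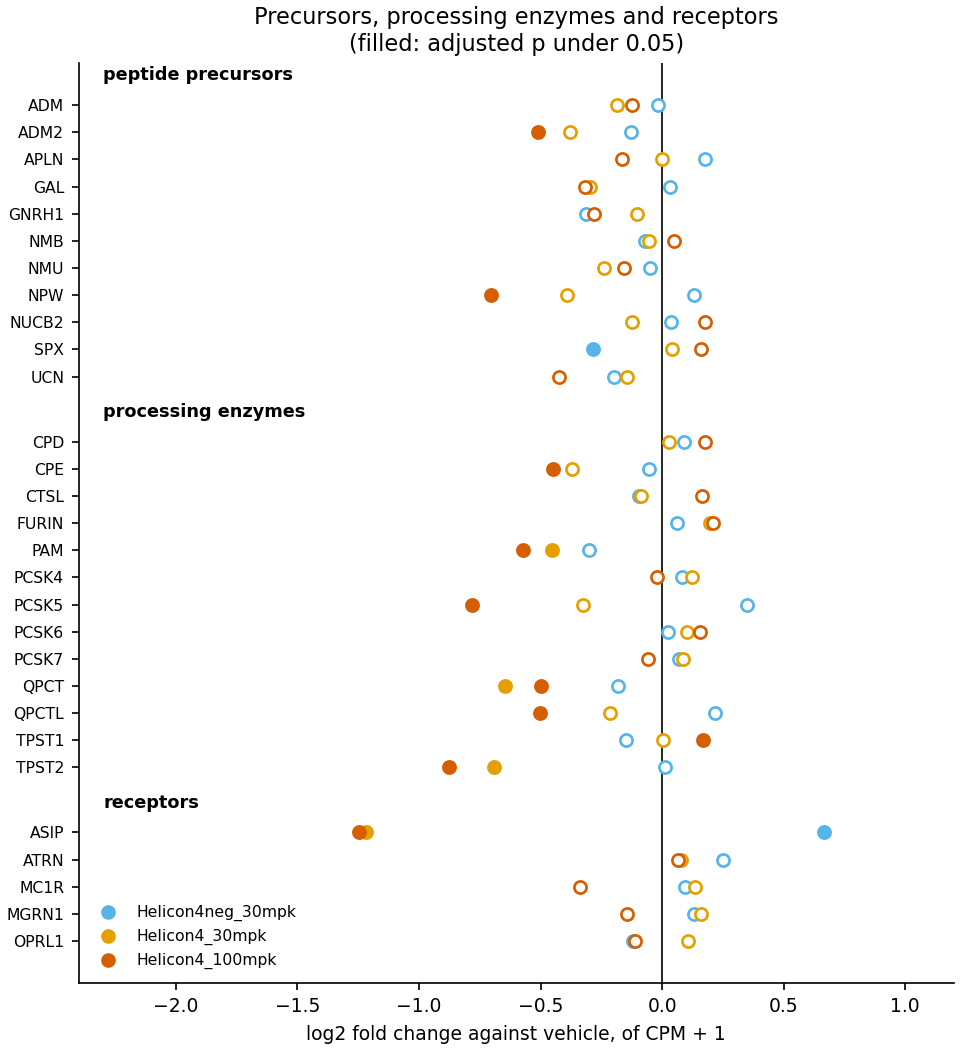
Log2 fold change of CPM + 1 against vehicle (x axis) for the tested peptide precursors, processing enzymes and receptors (y axis), with Helicon4neg at 30 mpk and Helicon4 at 30 and 100 mpk in 3 colours. Filled points have a limma adjusted p under 0.05; ASIP lies at -1.25 and -1.22 with Helicon4 and at 0.67 with Helicon4neg.

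Proteins of the secretory granule changed in both directions. At 100 mpk 4 of 13 tested rose and 2 fell (46.2% called), where 30.2% of all genes were called, 14.3% higher and 15.9% lower. The median change was 0.14, against 0.01 for all genes. CADPS2, a priming factor for granule release, rose by 0.80 and SYT11, a synaptotagmin, by 0.71 (limma adjusted p = 7.1e-06 and 3.49e-05). UNC13B, a priming factor for exocytosis, rose by 0.43 (limma adjusted p = 0.00212). VGF, itself a granule protein cut into peptides, fell by 1.01 (SE 0.21, limma adjusted p = 0.000411), from 2.37 ± 0.775 CPM (SD, n = 10) to 0.641 ± 0.127 (SD, n = 5). Of the granule GTPases RAB3D and RAB3A, named after their values were seen, the former rose by 0.66 and the latter fell by 0.54 (limma adjusted p = 0.007 and 0.00428). At 30 mpk CADPS2 rose by 0.38 (limma adjusted p = 0.0252), which became 0.0844 and 0.068 without Helicon4 30 mpk replicate 1 or 6. Against Helicon4neg, RAB27B and RAB27A, GTPases of granule docking, rose by 0.67 and 0.27 (limma adjusted p = 0.0312 and 0.0445). The call of RAB27B was lost without Helicon4neg replicate 1 or 4 or Helicon4 replicate 1, 4 or 6 (adjusted p up to 0.0921). That of RAB27A was lost without Helicon4neg 1, 3, 4, 6 or 7 or Helicon4 1, 4 or 6 (up to 0.120) and with the replicate block (0.107). CHGA, chromogranin A, is not in the table.

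Of 65 other peptide precursors, 11 were in the table and tested. At 100 mpk 2 fell and 0 rose (18.2% called), with a median of -0.16, where 30.2% of all genes were called, 14.3% higher and 15.9% lower. At 30 mpk against vehicle limma called 0 (1 at an unadjusted p under 0.05, 0 by edgeR and 0 by DESeq2), against 11.1% of all genes. NPW, the neuropeptide W precursor, fell by 0.71 (limma adjusted p = 0.0418) and ADM2, an adrenomedullin, by 0.51 (limma adjusted p = 0.0211). The call of NPW was lost without any 1 of 10 libraries (vehicle 2, 3, 4, 5, 6 or 8, or 100 mpk replicates 2 to 5; adjusted p up to 0.121), and that of ADM2 without 100 mpk replicate 1 or 5 (0.0572 and 0.0531). SPX, the spexin precursor, had group means between 0.668 and 1.27 CPM. It fell by 0.29 with Helicon4neg against vehicle (limma adjusted p = 0.0126, 0.0501 with the replicate block) and was 0.33 higher with Helicon4 than with Helicon4neg (limma adjusted p = 0.00377).

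Peptidases that break down secreted peptides were called at 100 mpk in 4 of 11 (36.4%), with a median of -0.01. Of all genes tested 30.2% were called there, 14.3% higher and 15.9% lower. THOP1, thimet oligopeptidase, fell by 0.76, and the endothelin-converting enzymes ECE2 and ECE1 by 0.65 and 0.39 (limma adjusted p = 3.13e-05, 0.00257 and 0.000691). PRCP, a carboxypeptidase that acts on a melanocortin, rose by 0.18 (limma adjusted p = 0.0474). Its call was lost without any 1 of 10 libraries (vehicle 1 to 5 or 7, or 100 mpk replicates 1 to 4; adjusted p up to 0.207). In the other 3 comparisons limma called 0 peptidases. Of all genes it called 11.1% at 30 mpk against vehicle, 4.84% with Helicon4neg and 15.1% against Helicon4neg. At an unadjusted p under 0.05 there were 5 at 30 mpk against vehicle, 1 with Helicon4neg and 1 against Helicon4neg, and edgeR called 0 in each, DESeq2 1 with Helicon4neg and 0 in the others.

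Regulators known from POMC in the pituitary or hypothalamus were called at 100 mpk in 5 of 15 (33.3%), with 4 higher and 1 lower. Of all genes tested 30.2% were called there, 14.3% higher and 15.9% lower, so the share called was near that of all genes. The median change of the list was 0.04, against 0.01 for all genes. STAT3, which carries leptin and cytokine signals to POMC, ran from 40.1 to 66.0 CPM with vehicle and from 71.8 to 93.3 at 100 mpk without overlap, a rise of 0.51 (SE 0.09, limma adjusted p = 7.35e-05). NR3C1, the glucocorticoid receptor, through which cortisol represses POMC, rose by 0.60 (SE 0.17, limma adjusted p = 0.00604). Both also rose at 30 mpk, by 0.30 and 0.55 (limma adjusted p = 0.0165 and 0.0178); without Helicon4 30 mpk replicate 1 these became 0.0603 and 0.0791. CREB1, the cyclic AMP response factor, rose by 0.38 (limma adjusted p = 0.0176; 0.0641 without 100 mpk replicate 3). ETV1, an ETS factor, rose by 0.63 (limma adjusted p = 0.0248), with 0.0545, 0.0813 and 0.0591 without 100 mpk replicate 2, 3 or 5. SMARCA4, a chromatin remodeller named after its values were seen, fell by 0.24 (limma adjusted p = 0.0472). Its call was lost without any 1 of 11 libraries (vehicle 2, 3, 5, 7, 8, 9 or 10, or 100 mpk replicates 1 to 4; adjusted p up to 0.202) and with the replicate block (0.113).

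Other regulators moved in other comparisons. HDAC2 fell by 0.26 with Helicon4neg against vehicle (limma adjusted p = 0.00379). FOXO1, a repressor of POMC downstream of insulin, was 0.38 lower with Helicon4 than with Helicon4neg (limma adjusted p = 0.0305); the call was lost without Helicon4neg 1, 4 or 8 or Helicon4 2, 3 or 5 (adjusted p up to 0.0879). TBX19, the factor that defines pituitary corticotrophs, averaged between 0.813 and 1.27 CPM in the 4 groups and was not called by limma, edgeR or DESeq2 in any comparison. NEUROD1 and CRHR1 are not in the table.

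The genes around TAC3 and POMC were tested where their starts lay within 250 kb, 9 near TAC3 and 5 near POMC. Starts here are those of the GENCODE 29 genes. For TAC3 and POMC they lie upstream of the RefSeq starts used for the promoter stretches. At 100 mpk 5 of these 14 rose and 1 fell, where 30.2% of all genes tested were called, 14.3% higher and 15.9% lower. At 30 mpk against vehicle 2 rose, where 11.1% of all genes were called, 5.86% higher. With Helicon4neg against vehicle limma called 0 of 14 (2 at an unadjusted p under 0.05, 0 by edgeR and 0 by DESeq2), where 4.84% of all genes were called. Between Helicon4 and Helicon4neg 3 rose, where 15.1% of all genes were called, 7.78% higher. NXPH4, a secreted neurexophilin 188 kb from TAC3, had the largest change. Its levels ran from 14.4 to 21.5 CPM with vehicle, from 12.3 to 21.2 with Helicon4neg, from 28.8 to 54.1 with Helicon4 at 30 mpk and from 42.9 to 58.1 at 100 mpk. All Helicon4 libraries lay above all others. NXPH4 rose by 1.51 at 100 mpk (SE 0.13, limma adjusted p = 3.27e-10), by 1.16 at 30 mpk (SE 0.12, limma adjusted p = 4.49e-08) and by 1.35 against Helicon4neg (SE 0.13, limma adjusted p = 5.17e-09), and kept these calls with the title code as a block.

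Between TAC3 and NXPH4, STAT6, a cytokine signal transducer, rose by 0.55 at 100 mpk and 0.32 at 30 mpk (limma adjusted p = 9.47e-06 and 0.00636; 0.0553 at 30 mpk with the replicate block). It rose by 0.26 against Helicon4neg (limma adjusted p = 0.0309), a call lost with the replicate block (0.0908) and without Helicon4neg 7 or 8 or Helicon4 1, 2 or 3 (adjusted p up to 0.103). NAB2, a corepressor, rose by 0.51 at 100 mpk and SHMT2, a serine hydroxymethyltransferase, fell by 0.42 (limma adjusted p = 0.00325 and 0.00251). ZBTB39, the nearest tested gene at 22.4 kb, changed by 0.14 (limma adjusted p = 0.414) and LRP1 by 0.05 (limma adjusted p = 0.810). Near POMC, EFR3B rose by 0.37 at 100 mpk and 0.45 against Helicon4neg (limma adjusted p = 0.003 and 0.000782). DNAJC27 rose by 0.41 at 100 mpk (limma adjusted p = 0.016), with 0.0957 and 0.0654 without 100 mpk replicate 2 or 3. No tested gene near POMC fell with the threshold passed, and ADCY3 at 249 kb changed by -0.52 (limma adjusted p = 0.166).

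**Figure D4:**
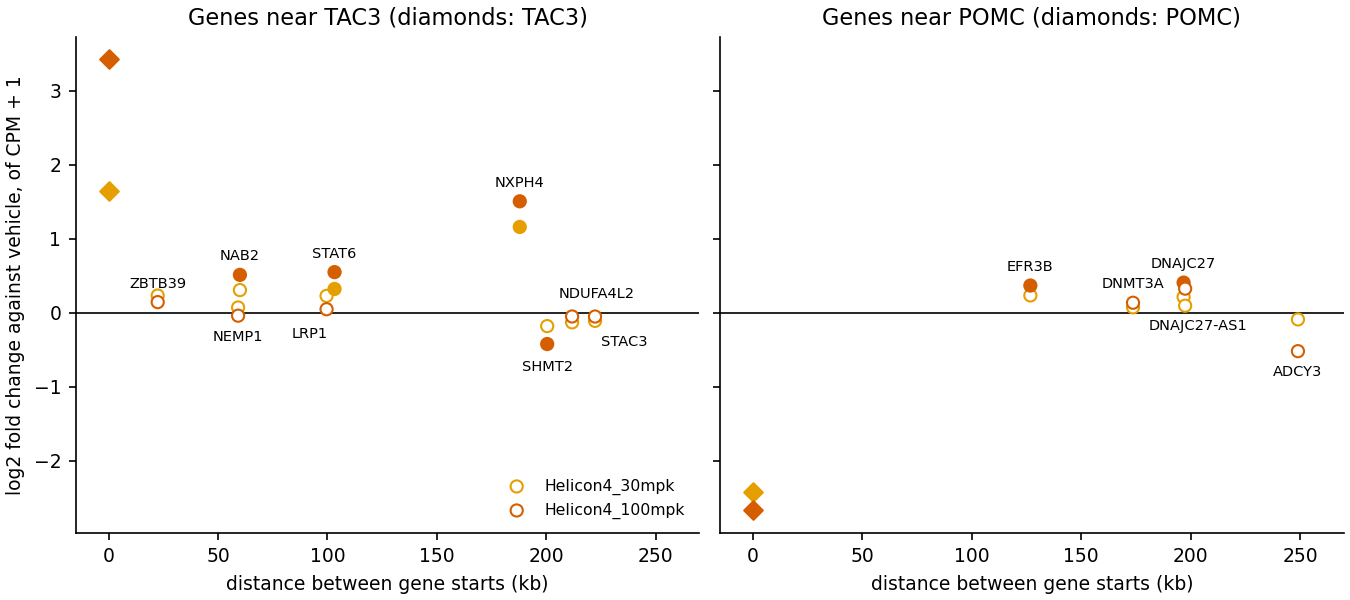
Log2 fold change of CPM + 1 against vehicle (y axis) of the tested genes near TAC3 and near POMC, by distance between gene starts (x axis, kb), with Helicon4 at 30 and 100 mpk. Diamonds at 0 kb are TAC3 and POMC themselves, and filled circles have a limma adjusted p under 0.05; NXPH4 stands at 1.51 and 1.16, below TAC3 at 3.43 and 1.65.

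The genes most like each precursor were found by Pearson's r of log2(CPM + 1) over all 29 libraries among tested genes with a mean of at least 5 CPM. The libraries share their treatment groups, so r mostly measures the group pattern, and it is a description. TAC3 was most like HRC (r = 0.96), TNMD (0.95), TRIB2 (0.95), TBX2 (0.94) and DENND2A (0.94). TNMD, tenomodulin, averaged 3.83, 3.97, 13.1 and 29.7 CPM with vehicle, Helicon4neg, 30 mpk and 100 mpk, and TRIB2, a pseudokinase, 95.8, 105, 161 and 225 CPM. All 5 were higher at 100 mpk than at 30 mpk in mean level, as TAC3 was. Most opposite to TAC3 were GNB5, a G protein β subunit (r = -0.96), the receptors ACKR3 (-0.96) and LPAR1 (-0.96).

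POMC was most like CEBPD (r = 0.98), CES1 (0.96), DAP (0.95), SLC1A5 (0.95) and CABLES1 (0.95). CEBPD, a C/EBP transcription factor, averaged 8.33, 11.5, 1.75 and 1.23 CPM in the 4 groups in the same order, and CES1, a carboxylesterase, 17.4, 21.1, 5.04 and 3.11 CPM. Both had, like POMC, their highest mean with Helicon4neg and a smaller step between the doses than from vehicle to 30 mpk. Most opposite to POMC were RGAG4 (r = -0.93), HAGLR (-0.91) and SPAG17 (-0.91). After group means were taken out, r with POMC was 0.86 for CEBPD and 0.79 for CES1, while between TAC3 and POMC it was 0.23. With TAC3 the same residual r was 0.71 for HRC and 0.57 for TNMD.

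**Figure D5:**
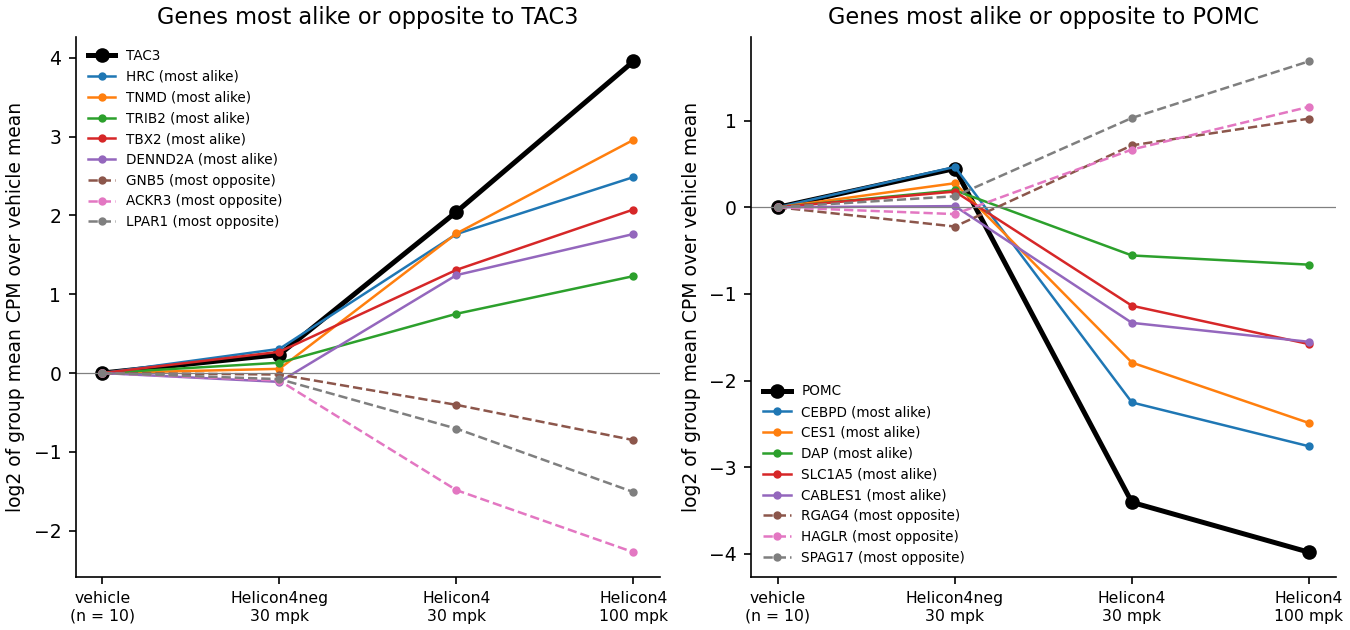
Log2 of the group mean CPM over the vehicle mean (y axis) in the 4 groups (x axis) for TAC3 and POMC (thick black lines), the 5 most alike genes (solid) and the 3 most opposite genes (dashed) of each. CEBPD follows POMC, with means of 8.33, 11.5, 1.75 and 1.23 CPM, and the genes like TAC3 step up at both doses.

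Markers of the cell types were read beside these levels. Neuroendocrine markers (6 of 10 in the table, with CHGA, INSM1 and NEUROD1 among those without a row) summed to 569 to 908 CPM with vehicle, 516 to 1475 with Helicon4neg, 511 to 737 with Helicon4 at 30 mpk and 590 to 869 at 100 mpk, with all groups overlapping. Of the 6 tested, 2 fell and 0 rose at 100 mpk, with a median of -0.05, where 15.9% of all genes fell and 14.3% rose. At 30 mpk 1 fell against vehicle and 1 against Helicon4neg, where 5.22% and 7.31% of all genes fell. Corticotroph markers were TBX19 and PITX1, 2 of 6 in the table. Their sums were 50.5 to 99.5 CPM with vehicle, 67.3 to 175 with Helicon4neg, 59.0 to 96.2 at 30 mpk and 53.5 to 72.8 at 100 mpk. These sums are nearly all PITX1, which averaged 76.9 CPM with vehicle, against 0.813 for TBX19. Colon epithelial markers were 5 of 9 in the table, without CDH1, VIL1, CDX1 and LGALS4. They summed to 2289 to 4355 CPM with vehicle, 3656 to 5107 with Helicon4neg, 2668 to 3359 at 30 mpk and 1914 to 2924 at 100 mpk. Vehicle overlapped each Helicon4 dose, while all Helicon4neg sums lay above those of both doses. Of the 5 tested, 1 rose and 1 fell at 100 mpk, with a median of 0.11, where 14.3% of all genes rose and 15.9% fell. Against Helicon4neg at 30 mpk 1 fell and 0 rose, with a median of -0.01, where 7.31% of all genes fell.

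Summed levels of fibroblast and endothelial markers were lower at 100 mpk than with vehicle, although single fibroblast markers changed in both directions. Fibroblast markers (8 of 14 in the table, without COL1A2, DCN, LUM, FAP, THY1 and POSTN) summed to 190 to 285 CPM with vehicle, 225 to 313 with Helicon4neg, 142 to 196 at 30 mpk and 114 to 178 at 100 mpk, and of 8 tested 3 rose and 3 fell at 100 mpk. Endothelial markers (3 of 8, without PECAM1, CDH5, KDR, TEK and VWF) summed to 41.2 to 96.0 CPM with vehicle and 25.4 to 40.5 at 100 mpk. Leukocyte markers (5 of 9) summed to 28.2 to 46.1 CPM with vehicle and 27.5 to 39.6 at 100 mpk. The part of other cells, host cells included, in the levels of TAC3 and POMC was not tested.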

How the data were processed

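PolyA RNA of xenograft tumors was sequenced in 29 libraries. The labels' protocols name both the NEBNext Ultra II Directional and the TruSeq stranded kit. Trimmomatic 0.39, STAR 2.7.7a, featureCounts, Subread 2.4.2, edgeR 4.0.2 and GRCh38 are named in the submitters' processing notes, while their settings and the annotation are not given in the sources used here. No mouse genome is named there, so reads of the host could be counted under human genes, which was not tested. The authors deposited a signal per gene, CPM after a scaling between libraries. All 29 columns were assigned to a sample. Of the deposited values 100% lay within 0.05 reads of a whole read count, and the counts summed to 26.8 to 61.6 M reads. Whole reads were thus recovered for the count tests used as alternatives.

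The tests ran on 13373 genes, those reaching 1 CPM in 5 or more libraries, after the transform log2(CPM + 1). They used limma 3.58.1 (R 4.3.3) with its trend and robust options, 1 fit of the 4 groups, and two-sided p-values adjusted by Benjamini-Hochberg over all genes, at a threshold of 0.05. Errors of fold changes are standard errors. The fit was tested on simulated data. The members, the 6 lists (peptide precursors, granule proteins, processing enzymes, degrading peptidases, receptors and POMC regulators) and the marker lists were chosen with earlier results of these data known. Genes named are TAC3 and POMC, up to 4 called members per list and comparison by smallest adjusted p, fixed genes (TAC1, TACR1, TACR2, TACR3, MC1R, MC2R, PCSK1, PCSK2, CPE, PAM, CHGA and TBX19), the neighbours and the genes most alike or opposite; others are given as named after their values were seen. Alternatives were no filter or 1 at 5 CPM, a pseudocount of 0.1, TMM factors, limma without trend and robust options, fits of 2 groups, the replicate number or title code as a block, the length slope as covariate, removal of the pair of libraries that stood apart, each library left out, edgeR 4.0.16 and DESeq2 1.42.0. Positions come from GENCODE 29, in which 13479 of the 13492 identifiers were found, and promoters from RefSeq GRCh38.p14, in which both genes were matched.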

Additional observations from a re-analysis of the deposited data

How the results depend on the processing

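The directions of TAC3 and POMC against vehicle and Helicon4neg held under every setting tried, while sizes moved with the scale and with the title code. For TAC3 at 100 mpk against vehicle the log2 difference was 3.95 with edgeR, 3.96 with DESeq2 and 4.17 when the title code entered as a block. For POMC it was -3.63 with a pseudocount of 0.1, -3.94 with edgeR, -3.96 with DESeq2 and -1.52 with the code block. At 30 mpk POMC gave -3.18, -3.40, -3.40 and -1.58 in that order, and against Helicon4neg -3.74, -3.84 and -3.85 under the first 3. Between doses the code block gave 2.19 for TAC3 and 0.066 for POMC, the latter a change of sign. The code-block values at 100 mpk are by construction the sum of the differences within 3 codes, each with a group of 1 or 2 libraries; the count tests lack the pseudocount of 1, which shrinks differences of low genes.

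Genes called fell with the code block to 141 at 100 mpk, 74 at 30 mpk, 2 with Helicon4neg and 184 against Helicon4neg, and list members to 0, 1, 0 and 1, and the 6 neighbours called in any comparison to 1. With the length slope as covariate they were 2249 at 30 mpk, 2383 with Helicon4neg and 3440 against Helicon4neg, with 11 and 16 list members in the last 2 and 10 neighbours. For Helicon4neg against vehicle a fit of only the 2 groups called 374, DESeq2 1105 (9 list members) and removal of the pair that stood apart 2031 (10 list members, and 13 at 30 mpk). With at least 5 CPM 1 and 5 list members were called with Helicon4neg and against it. Leaving out 1 library gave 986 to 1623 genes at 30 mpk and 393 to 2595 with Helicon4neg, and 3 to 11 and 5 to 10 list members with Helicon4neg and against it.

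On the recovered reads the quasi-likelihood test called 4047 genes at 100 mpk, 1514 at 30 mpk, 673 with Helicon4neg and 2092 against it.

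Of 55 calls of named genes the code block ended 42 and turned 8: CREB1 -0.19, DNAJC27 -0.14, ETV1 -0.35, NPW 0.71, PRCP -0.038, QPCTL 0.084, TPST1 -0.13 and VGF 0.87. A fit of only the 2 groups ended 7 (adjusted p of 0.103 for PRCP, 0.110 for TPST1, 0.0966 for SMARCA4, 0.0748 for QPCT, 0.119 for QPCTL, 0.0519 for RAB27B and 0.064 for STAT6), edgeR 2 (NPW 0.0601 and SMARCA4 0.0564), the fit without trend 2 (PRCP 0.0527 and SMARCA4 0.0518) and the length slope 2 (NPW 0.065 and CADPS2 0.0511). The replicate numbers gave no sign of pairing: r of residuals between libraries sharing a number (35 pairs) ran from -0.70 to 0.52 and 0 of 27 libraries correlated best with their own number. With the replicate number as a block the log2 differences at 100 mpk were 3.36 for TAC3 and -2.81 for POMC, with Helicon4neg 0.12 and 0.41. Depth limits POMC with Helicon4, at 16 to 83 reads per library, and intervals cover the spread between libraries only.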

Other observations

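CLDN5, an endothelial claudin, and CCDC3, a secreted protein, also followed POMC between libraries of the same group. They were singled out after their values were seen. After group means were taken out, r with POMC over 29 libraries was 0.78 for CLDN5 and 0.82 for CCDC3, and it was 0.95 and 0.87 within the vehicle libraries, 0.60 and 0.95 within Helicon4neg and 0.80 and 0.76 within Helicon4 at 30 mpk. CLDN5 averaged 14.2 CPM with vehicle, 19.0 with Helicon4neg, 5.50 with Helicon4 at 30 mpk and 2.99 at 100 mpk. CCDC3 averaged 27.5, 28.1, 17.6 and 13.0 CPM in the same order. For TAC3 the highest such residual r were 0.82 for C3orf62 and 0.82 for ZNF284, whose group means lay between 8.88 and 10.1 CPM and between 5.17 and 5.6 CPM. These r were picked as the highest among all tested genes and share the libraries' depth and composition, so they are values to follow up and not tests.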
